A study of Rattus norvegicus with 2 samples.

Results

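Fibroblast growth factor (FGF) receptors and the adaptor proteins that work directly beneath them were examined in a piggyBac transposon screen of rat haploid embryonic stem cells (haESCs). The group was set by name and held 10 genes, all of them present among the 18156 genes of the table: the receptor genes Fgfr1, Fgfr2, Fgfr3 and Fgfr4, the docking protein genes Frs2 and Frs3, and Shc1, Grb2, Gab1 and Ptpn11. RAH-1 haESCs carried green fluorescent protein (GFP) downstream of Rex1, a marker of the naive pluripotent state. They were mutated with a vector bearing a splice acceptor and a red fluorescent protein gene (PB-SA-RFP). In a haploid cell each gene is present once. The study enriched haploid cells by sorting, and the share of them in either library is not given. The mutant pool before screening, labelled PB-Ctrl, was sequenced as 1 library. The pool labelled PB-Diff, which came from cells still GFP-positive after random differentiation that were returned to 2i/LIF medium, was sequenced as 1 library after screening. Both groups shared the line, the reporter and the vector, and 2i/LIF medium contains PD0325901, an inhibitor of the kinase MEK that lies downstream of these receptors. Replicates were lacking on either side, so no test was run and no p-value is given, and every difference below compares these libraries rather than the conditions. More than 1 mutant pool was made in the study, and which pool these libraries came from, or whether it was the same for both, is not stated. The counts are of insertions in DNA, so neither the level of any transcript nor the cell type could be checked.

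FGF receptors are tyrosine kinases that pair up when an FGF ligand binds them together with heparan sulphate. FRS2 and FRS3 sit at the membrane, are phosphorylated by the receptor and gather GRB2 and the phosphatase SHP2, the product of Ptpn11. GRB2 brings SOS to RAS and so opens the path to ERK, SHC1 offers GRB2 another route to activated receptors, and GAB1 is a docking protein that GRB2 carries and that recruits SHP2 and phosphatidylinositol 3-kinase. In mouse embryonic stem cells FGF4, signalling mainly through FGFR1 with a part for FGFR2, activates ERK and readies the cells to leave the naive state.

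Before screening 1528935 insertions lay in genes, and after screening 1287231. The share of a gene in a library is given as its insertions per 1000000 insertions in genes (IPM), a fold is the ratio of these shares, and the range in parentheses is its exact 95% counting interval. A count of 0 allowed up to 1.96 IPM before and 2.33 after screening. Intervals and floors cover counting error only, because PCR reads without molecular identifiers are not independent molecules. A longer gene offers more sites, so levels were not compared between genes. Genes with 10 or more insertions over both libraries are termed measured, and all 10 genes passed with sums from 95 for Frs2 to 963 for Fgfr3. Those whose shares were 4-fold or more apart with an interval that excluded 1 are termed called, by a rule of size and not a test.

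The 4 receptor genes went in opposite directions. Fgfr1 (ENSRNOG00000016050), the main receptor in mouse embryonic stem cells, had 204 insertions before and 14 after screening, or 133 and 10.9 IPM. Its share was 12.3-fold lower after screening (7.15 to 22.8). Fgfr2 (ENSRNOG00000016374), which in its epithelial form answers ligands of the FGF7 group, went from 154 to 62 insertions, or from 101 to 48.2 IPM, and was 2.09-fold lower (1.55 to 2.86). The libraries therefore held fewer insertions of both genes after screening, but the drop of Fgfr1 was the larger. Taken after over before screening, the ratio of the Fgfr2 fold to the Fgfr1 fold was 5.84 (3.09 to 11.7).

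Fgfr3 and Fgfr4 stood on the other side. Fgfr3 (ENSRNOG00000016818), best known as a restraint on bone growth, went from 273 to 690 insertions, or from 179 to 536 IPM, and was 3.00-fold higher (2.61 to 3.47). Fgfr4 (ENSRNOG00000016763), the receptor that works with beta-Klotho in the liver to control bile acid synthesis, went from 132 to 466 insertions, or from 86.3 to 362 IPM. Its share was 4.19-fold higher (3.45 to 5.13), just past the 4-fold rule, with an interval that reached below it. The ratio of the Fgfr4 fold to the Fgfr3 fold was 1.40 (1.09 to 1.79), but its interval began at 0.989 with insertions halved, so the pair could not be told apart firmly. The ratio of Fgfr3 to Fgfr2 was 6.27 (4.48 to 8.85). Summed, the receptor genes went from 763 to 1232 insertions, a 1.92-fold higher share (1.75 to 2.10) that came from Fgfr3 and Fgfr4 alone.

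**Figure D1:**
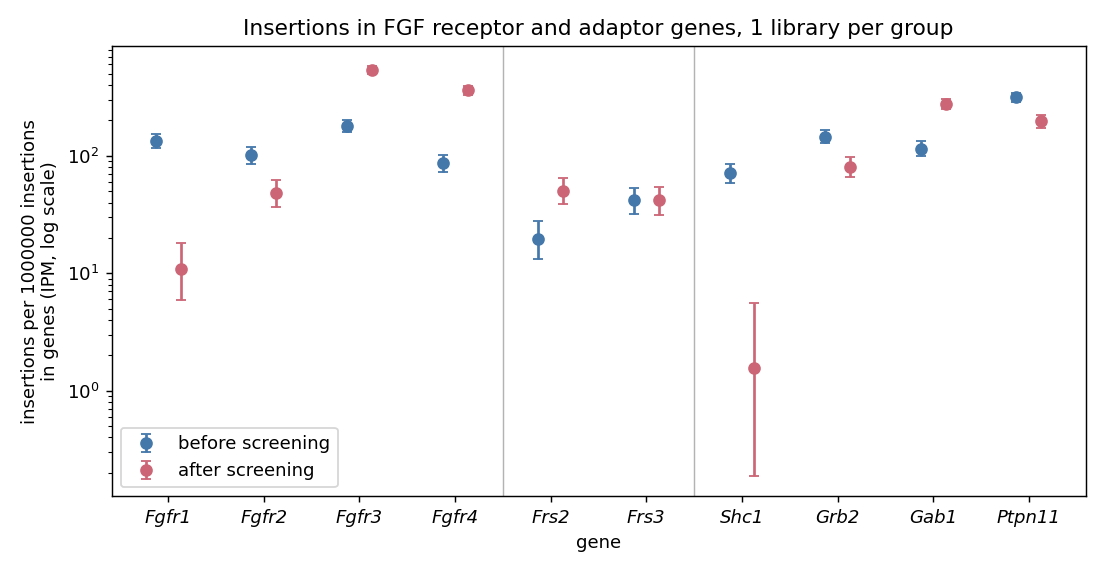
Insertions per 1000000 insertions in genes (IPM, vertical axis, log scale) for each of the 10 genes before (blue) and after screening (red), 1 library each; bars are exact 95% Poisson intervals, and vertical lines separate the receptors, the FRS proteins and the other adaptors. Fgfr1 and Shc1 lay furthest below their level before screening, at 10.9 and 1.55 IPM, while Fgfr3 and Fgfr4 lay above theirs. The level of Shc1 is below the 2.33 IPM that a count of 0 allowed after screening.

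The pair of FRS docking protein genes differed from each other. Frs2 (ENSRNOG00000005642), the main docking protein of FGF receptors, had 30 insertions before and 65 after screening, or 19.6 and 50.5 IPM, and was 2.57-fold higher (1.65 to 4.11). Frs3 (ENSRNOG00000014328), its relative, which is most abundant in the nervous system, went from 64 to 54 insertions. At 41.9 and 42.0 IPM its share was nearly equal, with a fold of 1.00 (0.685 to 1.46), and the counts are compatible with any fold in that interval. The Frs2 fold was 2.56 times that of Frs3 (1.41 to 4.71). Frs3 overlaps the protein-coding gene Prickle4 in assembly GRCr8, so its counts cannot be given to Frs3 with certainty.

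Of the other adaptors, Shc1 (ENSRNOG00000020657) held 109 insertions before and 2 after screening, or 71.3 and 1.55 IPM. Its share was 45.9-fold lower, the largest fold of the 10 genes, but with 2 insertions left the interval ran from 12.4 to 384. The level after screening lies below the 2.33 IPM that a count of 0 allowed there. Grb2 (ENSRNOG00000003990), the link from receptors to SOS, went from 223 to 104 insertions, or from 146 to 80.8 IPM, and was 1.81-fold lower (1.42 to 2.30). Ptpn11 (ENSRNOG00000030124), whose product SHP2 is a phosphatase that promotes RAS activation, went from 483 to 253 insertions, or from 316 to 197 IPM, and was 1.61-fold lower (1.38 to 1.88). These 2 genes lay on the same side as Shc1 but with much smaller drops. Taken after over before screening, the ratio of the Grb2 fold to the Shc1 fold was 25.3 (6.61 to 216).

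Gab1 (ENSRNOG00000017879) differed from the proteins it binds. It went from 176 to 357 insertions, or from 115 to 277 IPM, and was 2.41-fold higher (2.01 to 2.90). The ratio of its fold to that of Grb2 was 4.34 (3.21 to 5.91), and to that of Ptpn11 3.87 (3.04 to 4.94). The table thus held no common direction for the complex of GRB2, GAB1 and SHP2.

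Ordered by fold, the genes ran Fgfr4, Fgfr3, Frs2, Gab1, Frs3, Ptpn11, Grb2, Fgfr2, Fgfr1 and Shc1. Of the 9 pairs of neighbours in this order, 4 had an interval that excluded 1: Fgfr4 and Fgfr3, Gab1 and Frs3, Frs3 and Ptpn11, and Fgfr2 and Fgfr1. With insertions halved, a setting added after the data were seen, 2 of them still did, Gab1 and Frs3 and Fgfr2 and Fgfr1. Fgfr3 and Frs2, Frs2 and Gab1, Ptpn11 and Grb2, and Grb2 and Fgfr2 did not differ beyond counting error. Nor did Fgfr1 and Shc1, with a ratio of 3.73 (0.833 to 34.4).

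By the rule of size 1 of the 10 genes, Fgfr4, was called higher, against 19.5% of the 11976 measured genes, and 2, Fgfr1 and Shc1, were called lower, against 21.7%. Among the 8406 genes with at least 50 insertions, as all 10 had, these shares were 15.5% and 17.4%. With a 2-fold rule, 4 genes were higher (Fgfr3, Fgfr4, Frs2 and Gab1) and 3 lower (Fgfr1, Fgfr2 and Shc1), against 30.4% and 31.3% of measured genes and 28.7% and 28.9% of those with at least 50 insertions. The interval excluded 1 for 9 genes, all but Frs3, and for 78.6% of measured genes, or 81.6% of those with at least 50 insertions. These counts lie near those of the whole table, so the group as a whole did not stand apart from it. The median log2 ratio of the 10 genes was -0.34 and that of all measured genes -0.01, with the former spanning -5.20 for Shc1 to 2.06 for Fgfr4. Only 6.65% of measured genes had a lower ratio than Shc1 and 12.8% a lower ratio than Fgfr1, whereas 81.3% had a lower ratio than Fgfr4.

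**Figure D2:**
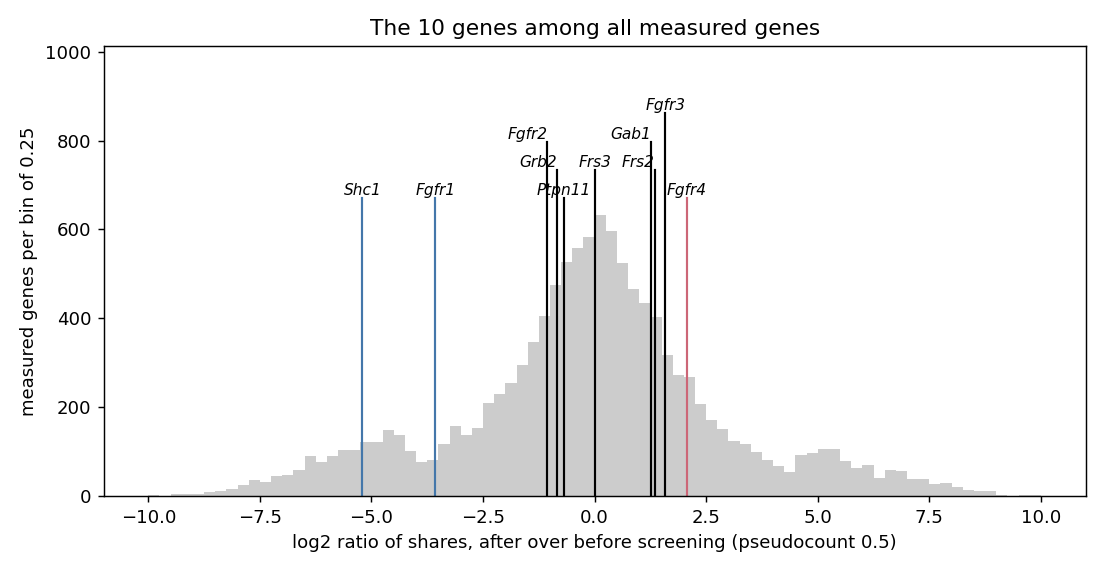
Number of measured genes (grey bars, bins of 0.25) by log2 ratio of shares after over before screening, with a pseudocount of 0.5; vertical lines mark the 10 genes, red where called higher, blue where called lower and black where not called. Shc1 at -5.20 lies within the lower hump of the distribution, and 7 of the 10 genes lie between -1.06 and 1.58.

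The table also gives the kind of insertion. Forward and reverse insertions are those with a counted orientation, and disrupting insertions are all insertions less the reverse ones. This held in each of the 10 genes and both libraries except Shc1 before screening, where the disrupting insertions were 3 fewer. The insertions without orientation were taken to lie in exons, except in Shc1 before screening. The fold of a kind of insertion, or of reads, is a ratio of shares of the total of that kind in genes. Folds of different kinds are thus scaled by different totals. The exon total took in only genes where the disrupting insertions were all insertions less the reverse ones. The splice acceptor of the vector can trap a transcript from an intron only in the sense orientation, which is why the reverse insertions are not counted as disrupting.

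Counted by disrupting insertions alone, the folds were close to those of all insertions. The former are a part of the latter, so this is not a separate check. Fgfr1 went from 108 to 8 disrupting insertions (11.6-fold lower, 5.68 to 27.5), Fgfr2 from 80 to 34 (2.02-fold lower, 1.34 to 3.11), and Shc1 from 78 to 2 (33.5-fold lower, 8.96 to 281). Fgfr4 went from 72 to 255 (4.13-fold higher, 3.17 to 5.44) and Fgfr3 from 178 to 471 (3.08-fold higher, 2.59 to 3.68). The same 3 genes were called by this count, 1 higher and 2 lower, against 18.7% and 21.2% of the genes measured by it. Frs2, with 20 and 54 disrupting insertions, was 3.15-fold higher (1.85 to 5.55), and Gab1, with 84 and 177, was 2.45-fold higher (1.88 to 3.22). Grb2 went from 127 to 57, Ptpn11 from 261 to 137 and Frs3 from 54 to 41. The log2 ratio of disrupting insertions differed from that of all insertions by -0.18 to 0.45, with the largest difference in Shc1.

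The reverse insertions, which the authors' count does not treat as disrupting, moved alongside. In Fgfr1 they went from 96 to 6 and the forward insertions from 101 to 8, folds of 13.1 lower (5.81 to 36.6) and 10.3 lower (5.03 to 24.5). In Fgfr4 the reverse insertions went from 60 to 211 (4.29-fold higher, 3.21 to 5.82) and the forward ones from 51 to 215 (5.17-fold higher, 3.79 to 7.16). The forward insertions of Shc1 went from 37 to 0 and the reverse ones from 28 to 0, so that the 2 insertions left after screening had no counted orientation. For 8 of the 10 genes the interval of the reverse fold excluded 1, the exceptions being Frs2 and Frs3. The share of all genes for which it did so was not computed. By all insertions the interval excluded 1 for 78.6% of measured genes, so this count does not set the group apart. Forward and reverse folds lay on the same side of 1 in all 10 genes, as they did in 95.6% of the 9436 genes with at least 10 insertions of each orientation. A split by orientation therefore did not set these genes apart. Nor are the orientations separate observations, since their counts within a gene were more alike than separate events would be, as described next.

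Within a gene, forward and reverse insertions were close in number in both libraries. The forward share of oriented insertions in Fgfr3 was 52.7% before (45.6 to 59.8) and 51.5% after screening (46.8 to 56.2), and in Ptpn11 49.8% (45.0 to 54.5) and 47.3% (40.5 to 54.1), with exact Clopper-Pearson intervals. Among the 9 genes with at least 20 oriented insertions before screening, it ran from 45.9% in Fgfr4 to 56.9% in Shc1, and among 8 such genes after screening from 45.8% in Frs3 to 56.0% in Frs2. If each insertion fell in either orientation on its own, the squared difference of the counts over their sum would average 1. It averaged 0.389 over those genes before and 0.285 after screening, and 0.345 and 0.369 over all genes with as many. Forward and reverse insertions were thus more alike in number than separate events would be. The intervals of the forward shares are wider than this spread, while the other intervals given here can be too narrow. With insertions halved, as would apply if each were counted from both transposon ends, the interval of Fgfr4 was 3.18 to 5.60, and the interval still excluded 1 for the 9 genes for which it did before.

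**Figure D3:**
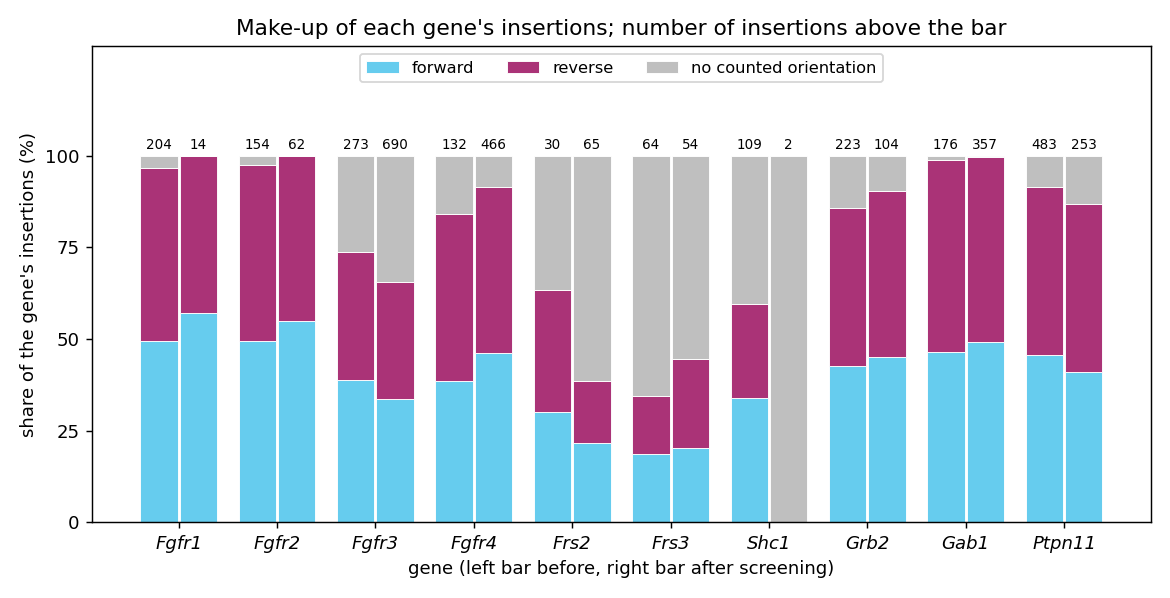
Share of each gene's insertions (vertical axis, percent) that were forward, reverse or without a counted orientation, with the left bar before and the right bar after screening and the number of insertions above each bar. Forward and reverse shares are similar except in Shc1 after screening, where neither was counted, and the share without orientation is small in Gab1 and large in Frs2, Frs3, Shc1 and Fgfr3.

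Exon insertions differed more between genes. In Gab1 they were 2 of 176 before and 1 of 357 after screening, and in Fgfr1 and Fgfr2 they went from 7 and 4 to 0, where a count of 0 of 14 and of 62 leaves an exact upper limit of 23.2% and 5.78%. Frs3 lay at the other end, with exon shares of 65.6% before (52.7 to 77.1) and 55.6% after screening (41.4 to 69.1). Exon insertions of Frs2 went from 11 to 40 (3.68-fold higher, 1.86 to 7.96) while its forward ones went from 9 to 14 and its reverse ones from 10 to 11. Its exon share was 36.7% before (19.9 to 56.1) and 61.5% after screening (48.6 to 73.3), and these intervals overlap. The gain of Frs2 therefore lay mostly in insertions read as exonic.

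The receptors with more insertions after screening also had more exon insertions. Exon insertions of Fgfr3 went from 72 to 238 (3.35-fold higher, 2.56 to 4.42), and their share was 26.4% before (21.2 to 32.0) and 34.5% after screening (30.9 to 38.2). Those of Fgfr4 went from 21 to 40 (1.93-fold higher, 1.11 to 3.44), and their share was 15.9% before (10.1 to 23.3) and 8.58% after (6.20 to 11.5). In each gene the intervals of the share before and after overlap, and so do the exon folds of Fgfr3 and Fgfr4. Grb2 had 32 exon insertions before and 10 after screening, and Ptpn11 41 and 33.

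In reads the folds were much as in insertions. Reads went from 279 to 20 in Fgfr1, from 226 to 73 in Fgfr2, from 423 to 1053 in Fgfr3 and from 193 to 684 in Fgfr4. The log2 ratio of reads differed from that of insertions by -0.30 to 0.15. Ptpn11, from 763 to 334 reads, stood at -0.93 against -0.68 in insertions, outside the counting interval of the latter, and Fgfr2 at -1.36 against -1.06. Reads per insertion ran from 1.28 in Grb2 to 1.64 in Shc1 before screening around a median of 1.36 over all measured genes. After screening the lowest was 1.17 in Frs3 and the highest that of Shc1, with 4 reads on 2 insertions, around a median of 1.30.

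**Figure D4:**
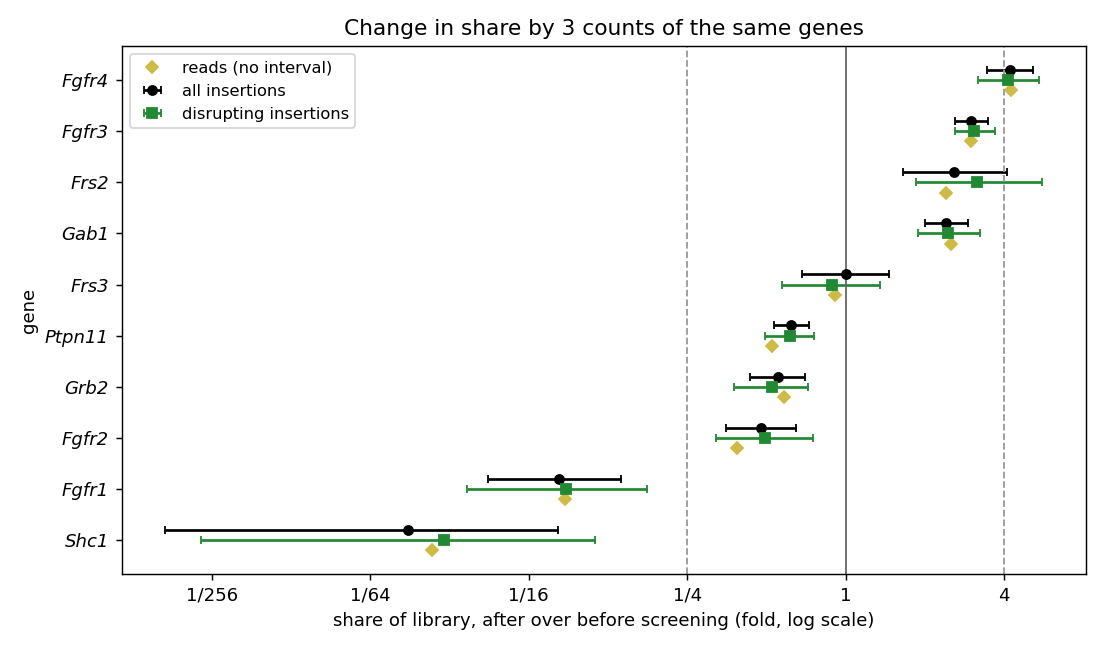
Fold of the share after over before screening (horizontal axis, log scale) for the 10 genes by all insertions (circles), disrupting insertions (squares) and reads (diamonds); bars are exact 95% counting intervals, drawn for insertions only, the solid line is a fold of 1 and the dashed lines mark the 4-fold rule. By each count Shc1 is lowest, Fgfr1 next and Fgfr4 highest, from 45.9-fold lower to 4.19-fold higher by all insertions.

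In assembly GRCr8 the 10 genes lie on 10 different chromosomes, so none shares a region with another. The median log2 ratio of measured genes on these chromosomes ran from -0.25 for that of Ptpn11 to 0.56 for that of Frs3, and was -0.07 for that of Fgfr1 and 0.08 for that of Shc1. Among the 5 measured genes on each side of Fgfr1 the median was -0.51, with 1 called higher and 3 lower, and around Shc1 it was 0.79, with 4 called higher and 2 lower. The 10 neighbours of Fgfr3 had a median of 1.09, with 1 called higher and 3 lower, and those of Fgfr4 of 0.65, with 2 called higher and 0 lower. Around Fgfr2 the median was -0.16 (3 higher, 1 lower), around Grb2 -0.69 (1 higher, 4 lower) and around Ptpn11 -1.42 (1 higher, 5 lower). In these 5 regions and that of Fgfr1 the median lay on the same side as the gene itself. Around Frs2 it was -1.42 (2 higher, 5 lower) and around Gab1 -0.96 (2 higher, 4 lower), and there and around Shc1 it lay on the opposite side. The neighbours of Frs3, which hardly differed itself, had a median of 0.75 (2 higher, 4 lower). Over all measured genes 19.5% were called higher and 21.7% lower. How often any measured gene lies on the same side as its neighbours was not computed, so no regional pattern can be read from these values. The part of the surrounding region in these differences was not tested. Besides Frs3, the genes Fgfr1, Grb2 and Gab1 overlap predicted loci in this assembly.

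The other genes of the pathway were taken from lists by function, which were drawn up with earlier results of these data known. Their calls stand against 19.5% of all measured genes called higher and 21.7% called lower. Of 22 genes listed as FGF ligands, 12 were measured, 4 were called higher and 2 lower, and the median log2 ratio was 1.06. The list takes in intracellular family members such as Fgf14, so these values are not those of receptor ligands alone. Fgf8, a ligand of early embryonic patterning, had 45 insertions before and 153 after screening (4.04-fold higher, 2.88 to 5.76), and Fgf18, a ligand that favours FGFR3, had 170 and 400 (2.79-fold higher, 2.33 to 3.36). Fgf14, an intracellular family member that acts on sodium channels and not through FGF receptors, had 168 and 491 (3.47-fold higher, 2.91 to 4.16), while Fgf6 had 128 and 33 (3.27-fold lower, 2.21 to 4.94). Fgf4, the ligand that mouse embryonic stem cells make themselves, had 19 and 25 (1.56-fold, 0.827 to 3.00), and was named outside the rule after its values were seen. Of 17 coreceptors and binding partners, 3 were called higher and 4 lower (median -0.04). Fgfrl1, a receptor relative without a kinase domain, went from 52 to 370 insertions (8.45-fold higher, 6.31 to 11.5), and the glypican gene Gpc1 from 542 to 239 (1.91-fold lower, 1.64 to 2.23).

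The same 19.5% and 21.7% of all measured genes apply to the remaining lists. Of 21 measured adaptors and other proteins that act near receptors, 4 were called higher and 2 lower (median 0.16). Shc3, a neuronal relative of Shc1, had 448 insertions before and 250 after screening (1.51-fold lower, 1.29 to 1.77), while the phospholipase gene Plcg2 went from 117 to 690 (7.00-fold higher, 5.75 to 8.60). Its relative Plcg1, named outside the rule after its values were seen, went the other way from 212 to 0 and was called lower. Of 11 measured genes of the RAS to ERK core, 1 was called higher and 1 lower (median 0.44). Ksr1, a scaffold of the cascade, went from 729 to 1421 (2.32-fold higher, 2.12 to 2.53), and Map2k1 and Map2k2, which encode the MEK kinases, from 364 to 417 and from 275 to 111. Of 12 measured feedback genes and targets, 3 were called higher and 2 lower (median 0.65). Spred2, a brake on RAS and RAF, had 648 insertions before and 19 after screening (28.7-fold lower, 18.2 to 48.0), while Spry4, another brake, went from 81 to 280 (4.11-fold higher, 3.20 to 5.33). Like the receptors and adaptors, each of these lists held genes called in either direction.

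**Figure D5:**
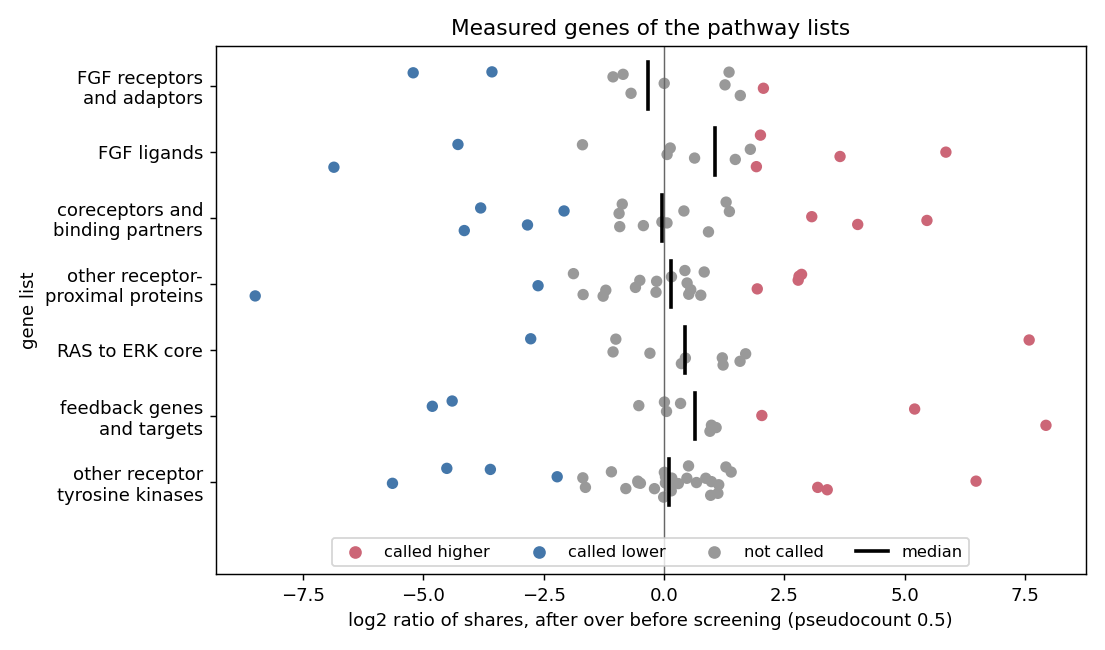
Log2 ratio of shares after over before screening (horizontal axis, pseudocount of 0.5) for the measured genes of each list; each point is a gene, red where called higher, blue where called lower and grey where not called, and black bars are list medians. Every list holds called genes on both sides of 0, and the medians run from -0.34 for the receptors and adaptors to 1.06 for the FGF ligand list. That list also holds intracellular family members.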

How the data were processed

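Sequence next to transposon ends was amplified by splinkerette PCR. Per the study's methods, the FASTX toolkit removed adapter and transposon sequence, and HaSAPPy, whose version is not given in the sources used here, aligned the reads and placed insertions in genes. The methods name a mouse assembly, whereas the identifiers beside the gene names are rat Ensembl ones, so the build is uncertain and no position is printed. Although the table counts insertions, the labels speak of preparing messenger RNA. HISAT2 2.0.5 and featureCounts 1.5.0-p3 are named in the submitters' processing notes, and their part in this table is not stated. For each gene the authors deposited unscaled counts of insertions, disrupting insertions, forward and reverse insertions, and reads. Columns were matched to libraries by name, less a trailing number that the labels do not explain. The other 33 columns, which repeat these counts or hold the authors' bias values, ranks, folds and Fisher scores, were not used. Insertions assigned to no gene, 2050427 before and 1767485 after screening, stayed out of totals except in an alternative.

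Folds are ratios of shares with exact Clopper-Pearson intervals of the conditional binomial share at 95%, and ratios of folds are conditional odds ratios with exact intervals (Python 3.11.15, scipy 1.17.1, pandas 2.3.3, numpy 2.4.6). Log2 ratios used a pseudocount of 0.5 insertions. The functions were tested on simulated data. Gene order and overlaps came from RefSeq assembly GRCr8, to which 15518 genes were matched by Entrez identifier. Named are the 10 members and, from each other list, up to 4 genes with the most insertions over both libraries, except where stated. The members and lists were chosen with earlier results of these data known. The alternatives tried were disrupting insertions, reads, scaling by the median ratio, halved insertions, a count of 0 at a floor of 3, totals with insertions in no gene, minimums of 1 and 50 insertions, a 2-fold rule and a pseudocount of 3.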

Additional observations from a re-analysis of the deposited data

How the results depend on the processing

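No paired analysis was possible because only 1 library stood on either side. With the 2-fold rule in place of the 4-fold rule, 4 of the 10 genes were called higher instead of 1, and 3 lower instead of 2. The shares of all measured genes moved alongside, from 19.5% to 30.4% higher and from 21.7% to 31.3% lower. The counts of 1 higher and 2 lower were the same under the other 8 alternatives run for them. There 15.5% to 20.4% of measured genes were called higher and 17.4% to 22.8% lower. Of 60 log2 ratios of single genes under 6 alternatives, 59 stayed within their counting interval, and that of Ptpn11 by reads, -0.93, did not; the cause was not tested. With halved insertions, an alternative added after seeing the data, 2 instead of 4 pairs of neighbours in the order of folds differed. The median over the genes ran from -0.45 by reads to -0.33 with a pseudocount of 3. Most alternatives reuse the same counts, so this is no evidence of repeatability. The floor of 3 could change none of the 10 genes, since none had a count of 0. Scaling by the median ratio and totals with insertions in no gene shifted every log2 ratio alike. The forward share taken over all insertions of a gene left its interval in 6 of 19 cases, because exon insertions then enter the denominator. Depth limits Shc1 after screening most, with 2 insertions, and the number of separate clones behind any count was not measured.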

Other observations

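Other receptor tyrosine kinases went in either direction as well. Of 34 measured genes of 35 listed, 3 were called higher and 4 lower, against 19.5% and 21.7% of all measured genes, and the median log2 ratio was 0.10. None of the 4 with the most insertions was called. Alk, a receptor of neural development, went from 475 to 869 insertions (2.17-fold higher, 1.94 to 2.44), the neurotrophin receptor gene Ntrk2 from 785 to 456 (1.45-fold lower, 1.29 to 1.63), the neuregulin receptor gene Erbb4 from 376 to 334 (1.06-fold, 0.908 to 1.23) and the collagen receptor gene Ddr1 from 371 to 314 (1.01-fold, 0.862 to 1.17).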
